A study of Mus musculus with 12 samples.

Results

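The comparison described here set microglia given Aβ42 alone against microglia given vehicle, and followed all 19938 genes measured on both sides. Its members were the 6 of the 12 arrays in the series that carry these treatments, 3 with Aβ42 alone and 3 with vehicle, taken by their titles. Microglia are the resident macrophages of the brain, and Aβ42 is the peptide that aggregates into the plaques of Alzheimer's disease. The cells came from C57BL/6J pups on postnatal day 7, were drawn from brain tissue by magnetic beads against CD11b, a surface integrin of myeloid cells, and were kept in culture for 3 days. Oligomeric Aβ42 was given at 10 µM for 6 h. The vehicle cultures received DMSO at 0.4%, and both groups also received ethanol at 0.001%, the vehicle of a drug used in the other arrays. The labels of the Aβ42 cultures do not state whether they held DMSO too. Each replicate was 1 litter of pups, and a litter supplied cells to every treatment. Cells of young pups in culture are a model of microglia outside the brain, and the response was read at 1 dose and 1 time. The other 6 arrays, with the EP4 receptor agonist AE1-329 at 100 nM with or without Aβ42, entered the fit as a source of spread and gave a repeat of the contrast in the presence of that drug.

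Macrophages sense foreign or misplaced molecules through pattern recognition receptors, among them the Toll-like receptors. The adaptors and kinases behind these receptors release the transcription factor NF-kB from its inhibitors and switch on interferon regulatory factors. NF-kB drives genes of cytokines, chemokines and adhesion molecules and also the genes of its own inhibitors, so the response carries its own brakes. Secreted type I interferon then acts through STAT factors on a further set of genes, many of which act against viruses. In the resting brain microglia express purinergic and chemokine receptors with which they survey the tissue, and many of these receptor genes fall when microglia are activated.

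Expression was read on Affymetrix Mouse Gene 1.0 ST arrays as log2 values, on which 1 unit is a 2-fold difference. Changes are given as the mean with Aβ42 minus the mean with vehicle, ± their standard error from limma, with n = 3 arrays per group throughout. A gene passed where its adjusted p (limma, Benjamini-Hochberg over all 19938 genes) was under 0.05, and only genes that passed are said to have risen or fallen. Array medians lay between 6.97 and 7.05. The median SD between replicates was 0.109 in vehicle and 0.0628 with Aβ42. Vehicle replicate 1 held 18 genes at least 1 unit above both other vehicle arrays, and vehicle replicate 3 held 12 genes as far below.

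The markers of microglia matched the label. Of 13 measured markers, of which 2 rose and 4 fell with Aβ42, 12 lay above the array median in all vehicle arrays, among them Csf1r, the receptor that microglia need to survive, at 12.48, 12.61 and 12.65, and C1qb, a complement subunit, at 13.29, 13.14 and 13.19. The summed linear signal of these markers was 45000 to 46200 in vehicle and 42500 to 44000 with Aβ42. In whole cultures, fewer cells of a type and less RNA per cell cannot be told apart. Of 12 neuronal markers none passed, and their sum was 1100 to 1230 in both groups. Of 12 astrocyte markers 1 rose, the glutamate transporter gene Slc1a3 (0.52 ± 0.11), and the sum was 1600 to 1920 in vehicle and 1790 to 1920 with Aβ42. Of 10 markers of monocytes and border macrophages 1 rose, Ms4a7 (0.73 ± 0.08), with sums of 5910 to 6550 and 6780 to 7550. Of these 10, 5 lay above the array median in all vehicle arrays, and the highest vehicle mean among them was 10.83, for Mrc1. The monocyte chemokine receptor gene Ccr2 lay at 4.99, 5.03 and 4.94 in vehicle and 4.83, 4.87 and 4.81 with Aβ42, below every array median. Markers of endothelial and mural cells (0 higher and 1 lower of 12), of the oligodendrocyte lineage (0 and 2 of 10) and of neutrophils (1 and 2 of 11) summed to 3280 to 5080, 2170 to 2550 and 811 to 874 in vehicle and to 3130 to 4800, 2110 to 2180 and 763 to 828 with Aβ42. Of these 3 sets 4, 4 and 0 markers in turn lay above the array median in all vehicle arrays. They included Acta2 of mural cells, at 11.51, 11.69 and 10.86. So did 1 neuronal and 1 astrocyte marker. Among lymphocyte and erythroid markers 1 of 6 rose, and the sums were 365 to 412 and 388 to 430. The RMA scale has no zero, so no marker is at 0, and the part of other cells in the results below was not tested.

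The response was broad and uneven. Of the 19938 genes 25.6% passed, 10.7% (2140) as higher and 14.8% (2960) as lower. Falls were more numerous, whereas the large changes were rises. A rise of at least 2-fold was found for 1.71% of genes (341) and such a fall for 0.943% (188). At the far end 17 genes rose by 4 units or more, another 23 by 3 to 4 units and another 66 by 2 to 3 units, against 3 genes that fell by 3 units or more and 19 that fell by 2 to 3. Most changes were small: 1799 of the rises and 2772 of the falls were under 1 unit, and the median size of a change that passed was 0.39 in both directions. The median change of all genes was 0.017. The 3 Aβ42 arrays lay entirely above the 3 vehicle arrays for 16.4% of genes (3274) and entirely below for 18.6% (3713).

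The 15 genes with the highest changes encode mostly secreted signals and surface receptors. Cd69, an early activation antigen of leukocytes, read 5.11, 5.01 and 5.07 in the vehicle arrays and 12.12, 12.10 and 11.94 in the Aβ42 arrays. Cxcl2, a chemokine that attracts neutrophils, read 5.63, 5.82 and 5.35 in vehicle and 12.59, 12.58 and 12.48 with Aβ42. Both went from below the array medians to far above them in every litter, by 6.99 ± 0.49 and 6.95 ± 0.10 units. Clec4e, a C-type lectin receptor of damaged cells and microbes, went from 5.85, 5.79 and 6.07 to 11.77, 11.90 and 11.98. The gene of interleukin-1 beta, Il1b, went from 6.76, 6.40 and 6.63 to 12.44, 12.46 and 12.39. Acod1, whose product makes the metabolite itaconate, went from 7.81, 7.25 and 7.63 to 13.11, 13.16 and 13.14. In these 5 genes every vehicle array lay far below every Aβ42 array.

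Il12b, the gene of a subunit shared by interleukin-12 and interleukin-23, read 6.51, 6.32 and 6.13 in vehicle and 11.22, 11.50 and 11.44 with Aβ42. The chemokine gene Ccl5, which attracts T cells and monocytes, read 8.15, 8.08 and 8.65 in vehicle and between 12.98 and 13.05 with Aβ42, and the acute-phase gene Saa3 read 6.69, 6.89 and 6.96 in vehicle and 11.51, 11.55 and 11.51 with Aβ42. Within each of these genes the 3 Aβ42 arrays lay close together, and all of them lay well above vehicle. The remaining genes among the 15 were the interferon-induced chemokine gene Cxcl10 (4.63 ± 0.67), Olr1 for a receptor of oxidised lipoprotein (4.43 ± 0.13), AW112010 (4.29 ± 0.21), the carboxylate transporter gene Slc13a3 (4.25 ± 0.12), Gpr84 for a receptor of medium-chain fatty acids (4.11 ± 0.13), the costimulatory receptor gene Cd40 (4.08 ± 0.08) and Gbp5 for an interferon-induced GTPase (4.05 ± 0.25). The dimmest of them in vehicle, such as Cd69 and Gbp5 (5.83, 5.66 and 5.75), may have had larger changes than these, since the signal over background of a probe set is unknown here.

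The standard errors of Cd69, Acod1 and Cxcl10 are wide, and the fit shares 1 estimate of spread over all 4 groups. An array outside the comparison, replicate 3 of AE1-329 alone, stood apart from its group in these genes. Cd69 read 4.75, 4.89 and 7.40 in the 3 arrays with AE1-329 alone, Cxcl10 read 7.29, 7.61 and 10.92 and Acod1 read 7.15, 7.48 and 9.65. When the fit held no more than the 6 arrays compared, the changes were the same and their standard errors were 0.07 for Cd69, 0.16 for Cxcl10 and 0.13 for Acod1. All 3 passed either way.

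**Figure D1:**
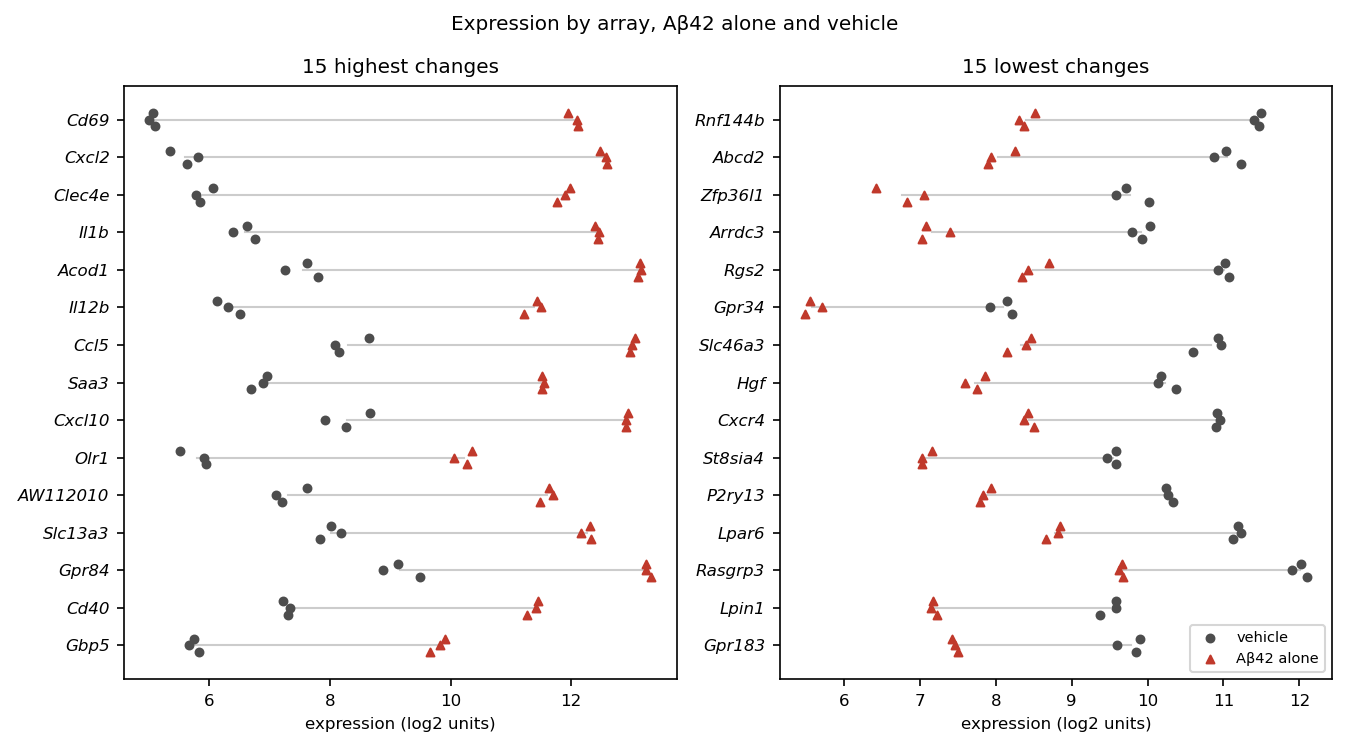
Expression on the log2 scale (horizontal axes) in each of the 3 vehicle arrays (grey circles) and the 3 arrays with Aβ42 alone (red triangles) for the 15 genes with the highest and the 15 with the lowest change, with a line between the group means. The genes were taken from those whose groups do not overlap, as is the case for 35.0% of all genes, and Cd69 moves from near 5 to near 12 units.

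The genes with the lowest changes encode an E3 ligase, transporters, receptors and regulators of signalling. Rnf144b, an E3 ubiquitin ligase gene, read 11.47, 11.40 and 11.50 in vehicle and 8.37, 8.31 and 8.51 with Aβ42. Abcd2, which moves very long-chain fatty acids into peroxisomes, read 11.23, 10.87 and 11.04 in vehicle and 7.90, 7.94 and 8.25 with Aβ42. Zfp36l1, whose product speeds the decay of mRNAs with AU-rich elements, read 10.02, 9.58 and 9.71 in vehicle and 6.83, 7.05 and 6.42 with Aβ42. Each fell by about 3 units, by 3.06 ± 0.06, 3.02 ± 0.10 and 3.00 ± 0.14, and in every litter. Arrdc3, an arrestin-like adaptor that takes receptors off the membrane, read 9.92, 9.80 and 10.03 in vehicle and 7.02, 7.39 and 7.08 with Aβ42. Rgs2, a brake on G protein signals, read 11.07, 10.93 and 11.02 in vehicle and 8.34, 8.42 and 8.70 with Aβ42. Hgf, the gene of hepatocyte growth factor, read 10.37, 10.14 and 10.18 in vehicle and 7.75, 7.59 and 7.85 with Aβ42. The groups were at least 2 units apart in all 6 of these genes.

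Among the same 15 genes, 5 encode G protein-coupled receptors: Gpr34 for lysophosphatidylserine (fell by 2.51 ± 0.08), the chemokine receptor Cxcr4 (2.50 ± 0.05), the purinergic receptor P2ry13 (2.43 ± 0.09), Lpar6 for lysophosphatidic acid (2.41 ± 0.08) and Gpr183 for oxysterols (2.32 ± 0.09). The rest were Slc46a3, a lysosomal transporter gene (fell by 2.50 ± 0.10), the polysialyltransferase gene St8sia4 (2.47 ± 0.07), Rasgrp3 for an activator of RAS proteins (2.35 ± 0.09) and Lpin1 for a phosphatidate phosphatase (2.33 ± 0.08). Cxcr4 lay at 10.90, 10.96 and 10.92 in vehicle and at 8.50, 8.37 and 8.42 with Aβ42.

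Sensing genes moved in both directions. Of 24 measured receptors, co-receptors and adaptors, 12 rose and 6 fell, with a median change of 0.28. Among the 9 Toll-like receptors the genes for the lipoprotein receptors rose: Tlr2 went from 9.31, 9.38 and 9.33 to 11.73, 11.73 and 11.76 (2.40 ± 0.05), Tlr1 rose by 1.89 ± 0.06 and Tlr6 by 0.79 ± 0.08. The endotoxin receptor gene Tlr4 fell, from 9.34, 9.27 and 9.60 to 8.51, 8.54 and 8.52 (by 0.88 ± 0.09), and so did the genes of the endosomal RNA receptors Tlr8 (1.83 ± 0.08 lower) and Tlr7 (0.73 ± 0.06 lower). Of the 4 co-receptors Cd14 rose (1.15 ± 0.07) and Cd180, which holds back Tlr4 signals, fell by 0.40 ± 0.06. Among adaptors and kinases 8 of 11 rose and none fell. They included Ikbke, an inducible kinase that activates interferon regulatory factors (2.90 ± 0.10), Irak2 (1.43 ± 0.08), the shared adaptor Myd88 (0.87 ± 0.05) and Irak3, which blocks the same relay (1.76 ± 0.06).

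The measured genes of NF-kB and its inhibitors rose nearly as a whole. Of 19 measured members 16 rose and none fell, with a median change of 1.83 against 0.017 for all genes. All 4 measured subunit genes rose, Nfkb2 by 2.41 ± 0.08, Relb by 1.74 ± 0.07, Rel by 1.62 ± 0.06 and Rela by 0.50 ± 0.06. The subunit gene Nfkb1 was not among the genes measured. All 6 genes for IkB-type inhibitors rose as well. Nfkbia, the inhibitor that holds NF-kB in the cytoplasm and is remade within hours of its release, read 9.97, 9.70 and 9.74 in vehicle and 12.38, 12.38 and 12.43 with Aβ42 (2.59 ± 0.07). The nuclear IkB gene Nfkbiz read 8.42, 8.10 and 8.37 in vehicle and 11.73, 11.85 and 11.81 with Aβ42 (3.50 ± 0.08). Of 9 genes for further brakes 6 rose, led by the ubiquitin-binding inhibitor Tnip3 (3.95 ± 0.17), the adaptor Traf1 (2.52 ± 0.11) and the nuclease Zc3h12a (2.45 ± 0.08), and the deubiquitinase gene Tnfaip3 rose by 1.94 ± 0.06. Tnip2, Cyld and Otud7b did not pass (0.21, 0.16 and -0.19), but Tnip2 passed as higher without vehicle replicate 3 (0.29), and Cyld as higher (0.28) and Otud7b as lower (-0.23) without vehicle replicate 1.

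The proximal promoters of genes that moved are shown because these files allow the sequence to be set beside the change. For 15614 of the genes tested RefSeq gives a window of 250 bases before the start, on GRCm38.p6, and each was searched on both strands for 4 motifs: the NF-kB consensus, the interferon-response core GAAANNGAA, the AP-1 site TGANTCA and the cyclic AMP element TGACGTCA. The NF-kB consensus stood in 5.05% of these windows, in 15.6% of the 263 genes with a window that rose at least 2-fold, and in 2.01% of the 149 that fell at least 2-fold. In the list of NF-kB genes it stood in 9 of 16 windows (56.2%) and in the chemokine list in 5 of 19 (26.3%). The AP-1 site stood in 7.12% of all tested windows, in 10.3% of the risers and in 10.1% of the fallers, and the cyclic AMP element in 2.33%, 2.66% and 1.34%. A match is a run of letters and not a measured binding site. The windows of Nfkbia (chr12:55492648-55492897, minus strand) and Cxcl2 (chr5:90903649-90903898, plus strand) follow, from 5′ to 3′ with the last base next to the start, with matches in capitals.
Nfkbia: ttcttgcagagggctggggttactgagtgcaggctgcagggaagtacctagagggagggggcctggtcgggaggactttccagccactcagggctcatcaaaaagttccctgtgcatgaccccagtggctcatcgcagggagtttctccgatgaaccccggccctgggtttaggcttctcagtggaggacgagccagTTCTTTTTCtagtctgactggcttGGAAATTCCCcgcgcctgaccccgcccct
Cxcl2: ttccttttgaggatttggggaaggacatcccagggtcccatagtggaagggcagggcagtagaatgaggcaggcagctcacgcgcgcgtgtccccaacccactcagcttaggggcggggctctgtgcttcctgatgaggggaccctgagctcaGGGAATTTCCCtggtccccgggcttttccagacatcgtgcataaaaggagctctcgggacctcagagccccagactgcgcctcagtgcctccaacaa
In Nfkbia the NF-kB match lay at bases -29 to -20 from the start and an interferon-response core at -53 to -45. In Cxcl2 overlapping NF-kB matches on the 2 strands covered bases -97 to -87.

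Immediate-early genes, which answer within minutes to growth signals and stress, were mixed at 6 h. Of 21 measured members 14 rose and 2 fell, with a median of 0.27. Junb rose by 1.17 ± 0.06, Jund by 0.87 ± 0.05, the small MAF factor Maff by 1.82 ± 0.12 and Ier3 by 1.25 ± 0.08. Jun itself fell, from 10.81, 10.40 and 10.55 to 9.52, 9.51 and 9.55 (by 1.06 ± 0.09), and so did Bhlhe40, a repressor of the clock family (0.83 ± 0.11 lower). Egr1 did not pass, at 0.06. Of 12 phosphatases that switch off MAP kinases 6 rose, led by Dusp16 (2.06 ± 0.06) and Dusp2 (1.71 ± 0.09), and 4 fell, led by Dusp22 (by 0.87 ± 0.08).

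Of 7 interleukin-1 family ligand genes 5 rose and none fell, and of 10 inflammasome genes 5 rose and 3 fell, with a median of 0.10. Beside Il1b, the genes of interleukin-1 alpha (Il1a, 3.84 ± 0.16), interleukin-18 (Il18, 1.04 ± 0.12) and the natural receptor antagonist (Il1rn, 0.80 ± 0.12) rose, whereas 0 of 5 measured receptor and binding protein genes of the family passed. Nlrp3, the sensor that assembles the inflammasome, read 8.19, 8.02 and 8.27 in vehicle and 11.77, 11.79 and 11.79 with Aβ42. It rose by 3.62 ± 0.09, and Casp4, the caspase that detects endotoxin inside cells, by 2.41 ± 0.11. The adaptor Pycard fell by 0.78 ± 0.09, and other sensors fell too, Naip5 by 0.82 ± 0.07 and Nlrp1b by 0.76 ± 0.08. Over the 22 members 10 rose (45.5%, against 10.7% of all genes) and 3 fell (13.6%, against 14.8%).

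Cytokine and chemokine genes were among the highest rises, but many members did not pass. Tnf read 9.33, 9.36 and 9.62 in vehicle and 13.39, 13.36 and 13.40 with Aβ42, and Il6 read 4.74, 4.86 and 4.47 in vehicle and 8.46, 8.75 and 8.73 with Aβ42. Of 30 genes of the TNF superfamily 9 rose, among them Tnfsf9, a ligand that costimulates T cells (3.12 ± 0.10), the death receptor gene Fas (1.86 ± 0.11) and Cd40, and 4 fell, led by the receptor gene Tnfrsf21 (by 0.94 ± 0.06). The 9 rises numbered 5 among genes above the median level. Of 19 interleukins and colony-stimulating factors 9 rose, among them Il27 (1.17 ± 0.06) and Ebi3 (1.05 ± 0.10), the 2 chains of interleukin-27. Il16 fell (by 0.39 ± 0.07), and Il12a and Il23a, partners of Il12b in interleukin-12 and interleukin-23, did not pass, at 0.10 and 0.09. Of the 9 rises 6 were left with only the 6 arrays in the fit and 4 among genes above the median level, where dim genes were not tested.

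Of 28 measured chemokine genes 18 rose and 1 fell, with a median of 0.48. The neutrophil attractants Cxcl1 (3.23 ± 0.10) and Cxcl3 (2.47 ± 0.14) rose with Cxcl2, and the interferon-induced Cxcl9 (2.78 ± 0.16) with Cxcl10. Among 14 CC chemokines 9 rose, with Ccl4 (2.32 ± 0.10), Ccl7 (1.63 ± 0.19) and the monocyte attractant Ccl2 (1.47 ± 0.16) after Ccl5. Ccl3, often induced together with Ccl4, changed little, from 13.37, 13.12 and 13.22 to 13.56, 13.55 and 13.48 (0.30 ± 0.06). In vehicle it already lay near the highest value on any array, 13.95, and whether its signal was saturated was not tested. Cxcl14 fell by 0.72 ± 0.06. Of 15 genes of receptors for such signals 6 fell, among them Cxcr4, the sphingosine-1-phosphate receptor S1pr1 (by 1.60 ± 0.09) and Ccr1 (by 0.89 ± 0.11), and 4 rose, led by the chemerin-binding receptor Ccrl2 (2.63 ± 0.09).

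Most interferon effector genes rose, and the interferon beta gene itself did not pass at 6 h. That gene, Ifnb1, read 5.62, 5.69 and 5.50 in vehicle and 5.91, 5.51 and 5.70 with Aβ42 (0.11). Of 32 effector and sensor genes 26 rose and 2 fell, with a median of 1.05. Ifit1, which binds viral RNA, read 7.39, 8.07 and 8.42 in vehicle and 11.19, 11.32 and 11.49 with Aβ42 (3.37 ± 0.44). Rsad2 (2.77 ± 0.52), Ifit2 (2.69 ± 0.53), Mx1 (2.69 ± 0.37) and Mx2 (2.53 ± 0.21), all known for blocking viruses, followed, with the GTPase genes Gbp3 (2.40 ± 0.21) and Irgm1 (1.28 ± 0.18) after Gbp5. The RNA sensor genes Ifih1 and Ddx58 rose by 1.52 ± 0.11 and 1.06 ± 0.13, whereas their adaptor Mavs fell by 0.36 ± 0.07. The other fall counted in the list was Irf2bp2 (by 0.73 ± 0.08), which encodes a partner of the repressor IRF2 and neither an effector nor a sensor.

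Upstream of these effectors 16 of 34 genes of the interferon and JAK-STAT pathway rose (47.1%, against 10.7% of all genes) and 6 fell (17.6%, against 14.8%). The regulatory factors split: Irf1 (1.73 ± 0.10) and Irf7 (1.69 ± 0.32) rose, and Irf8, a factor that microglia need for their development, fell from 11.38, 11.57 and 11.55 to 10.59, 10.52 and 10.59 (by 0.93 ± 0.06). Irf2 fell by 0.52 ± 0.08. Jak2 (1.29 ± 0.10) and Stat2 (1.00 ± 0.13) rose. Of 10 brakes 5 rose, Socs3, which shuts off interleukin-6 signals, by 3.48 ± 0.14, and Usp18, which shuts off the type I interferon receptor, by 2.56 ± 0.35, while Socs6 fell by 1.35 ± 0.06. The interleukin-6 receptor gene Il6ra fell by 1.54 ± 0.10 as Il6 rose.

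The interferon-response core stood in 7.99% of all tested promoter windows, in 14.8% of those of genes that rose at least 2-fold, in 6.04% of those that fell at least 2-fold, and in 12 of 23 windows of the effector and sensor list (52.2%). The windows of Ifit1 (chr19:34640639-34640888, plus strand), Gbp5 (chr3:142496684-142496933, plus strand) and Cxcl10 (chr5:92348890-92349139, minus strand) show promoters with the core alone and with both kinds of match, again with matches in capitals.
Ifit1: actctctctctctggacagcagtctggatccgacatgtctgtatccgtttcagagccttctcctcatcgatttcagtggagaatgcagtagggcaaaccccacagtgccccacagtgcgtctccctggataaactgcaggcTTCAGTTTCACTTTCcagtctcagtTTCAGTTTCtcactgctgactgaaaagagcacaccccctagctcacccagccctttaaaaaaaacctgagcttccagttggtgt
Gbp5: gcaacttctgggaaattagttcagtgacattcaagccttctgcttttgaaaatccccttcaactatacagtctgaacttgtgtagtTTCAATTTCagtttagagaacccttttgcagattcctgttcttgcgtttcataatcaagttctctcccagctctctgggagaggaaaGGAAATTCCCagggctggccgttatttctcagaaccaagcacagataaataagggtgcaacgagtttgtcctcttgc
Cxcl10: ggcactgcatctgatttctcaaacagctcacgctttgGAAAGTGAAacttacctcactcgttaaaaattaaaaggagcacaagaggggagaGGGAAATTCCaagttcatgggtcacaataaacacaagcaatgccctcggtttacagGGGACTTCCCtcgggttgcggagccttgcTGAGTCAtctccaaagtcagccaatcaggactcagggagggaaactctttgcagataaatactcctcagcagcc
Ifit1 held 3 cores, at -109 to -101, -103 to -95 and -84 to -76, of which the first and the second overlap, and no NF-kB match. Gbp5 held 1 core at -164 to -156 and 1 NF-kB match at -77 to -68. Cxcl10 held a core at -213 to -205, NF-kB matches at -159 to -150 and -103 to -94, and an AP-1 match at -74 to -68. In the arrays all 3 genes rose by more than 3 units.

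Few microRNA genes passed, but some moved far. MicroRNAs are short RNAs that pair through their seed, bases 2 to 8, with sites in target mRNAs and lower their output. Of 296 microRNA genes measured 21 rose and 6 fell, 9.12% against 25.6% of all genes, and 6 rose at least 2-fold. These 6 were named after their values were seen. The probe sets are annotated to the hairpin genes, so they read primary or precursor transcripts, and levels of mature microRNA were not measured here. RefSeq (GRCm38.p6) holds 271 of the 296 genes. The mature forms that carry the known activity follow, with the seed in capitals.
Mir146, miR-146a-5p: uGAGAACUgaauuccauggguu
Mir155, miR-155-5p: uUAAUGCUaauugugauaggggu
Mir221, miR-221-3p: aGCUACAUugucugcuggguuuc
Mir222, miR-222-3p: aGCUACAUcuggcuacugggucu
Mirlet7c-1, let-7c-5p: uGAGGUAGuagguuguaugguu
Mir99a, miR-99a-5p: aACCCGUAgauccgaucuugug
The seed GCUACAU is shared by miR-221 and miR-222, which lie side by side on the X chromosome, and by 3 mature microRNAs of the table in all. The seed GAGGUAG marks the let-7 family, with 13 entries. The seeds of miR-146a, miR-155 and miR-99a had 2, 1 and 3 entries.

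Mir146, known as a brake on Toll-like receptor adaptors, read 4.47, 4.23 and 4.25 in vehicle and 7.33, 7.70 and 7.58 with Aβ42 (3.22 ± 0.14). Mir155, which is known to sustain inflammatory activation of macrophages, read 6.77, 6.70 and 6.53 in vehicle and 9.33, 9.20 and 9.36 with Aβ42 (2.63 ± 0.09). Mir221 read 6.29, 6.70 and 6.85 in vehicle and 8.89, 8.83 and 8.95 with Aβ42 (2.28 ± 0.11). In all 3 the Aβ42 arrays lay far above the vehicle arrays, and Mir222 rose beside its neighbour by 1.73 ± 0.11. Mirlet7c-1 (1.10 ± 0.09) and Mir99a (1.02 ± 0.09) share a host transcript on chromosome 16, Mir99ahg, which rose by 0.93 ± 0.07.

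**Figure D2:**
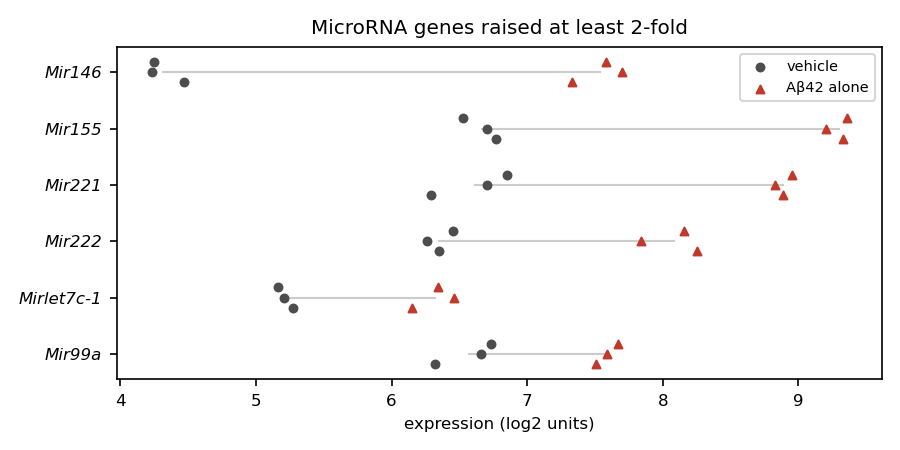
Expression on the log2 scale (horizontal axis) of the 6 microRNA genes that rose at least 2-fold, in each vehicle array (grey circles) and each array with Aβ42 alone (red triangles), with a line between the group means. The groups do not overlap for any of the 6, and Mir146 shows the largest gap, 3.22 ± 0.14 units.

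Among genes of mRNA decay, 8 of 21 rose (38.1%, against 10.7% of all genes) and 3 fell (14.3%, against 14.8%). The nuclease genes Zc3h12c (2.90 ± 0.07) and Zc3h12a, which cut cytokine mRNAs, rose, and so did Zfp36 (0.94 ± 0.07), the gene of tristetraprolin. The other members of the ZFP36 family fell: Zfp36l2 went from 11.16, 11.35 and 11.36 to 9.93, 9.74 and 9.90 (by 1.44 ± 0.07) and Zfp36l1 by 3.00 ± 0.14. Members of a family with the same known action thus moved in opposite directions.

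The inducible genes that make prostaglandin E2 rose, and the gene of its breakdown fell. Ptgs2, the gene of cyclooxygenase-2, read 9.97, 9.64 and 9.02 in vehicle and 12.73, 12.66 and 12.73 with Aβ42, and Ptges, the inducible prostaglandin E synthase, read 8.15, 7.71 and 7.62 in vehicle and 11.60, 11.64 and 11.69 with Aβ42 (3.82 ± 0.11). Hpgd, whose enzyme inactivates prostaglandins, fell by 1.42 ± 0.06, and the synthases of other prostanoids fell, Hpgds (prostaglandin D2) by 0.70 ± 0.08 and Tbxas1 (thromboxane) by 0.50 ± 0.06. Over 19 members 5 rose and 6 fell. Of the 6 receptor genes 1 rose, Ptgir for prostacyclin (1.11 ± 0.11), and 2 fell.

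Metabolic genes moved in small sets. Of 10 genes of arginine and itaconate metabolism 7 rose and none fell: after Acod1 came the mitochondrial superoxide dismutase gene Sod2 (1.95 ± 0.08), Gch1, which makes the cofactor of nitric oxide synthase (1.84 ± 0.11), Nos2 (1.58 ± 0.08), Odc1 (1.30 ± 0.19) and the arginine transporter Slc7a2 (1.12 ± 0.07). Arg1, a marker of alternative activation, did not pass, at 0.17, but passed as higher without Aβ42 replicate 2 (0.24) or without vehicle replicate 2 (0.23). Of 20 genes of the antioxidant response governed by NRF2 11 rose, led by the cystine importer Slc7a11, which read 9.51, 9.25 and 9.14 in vehicle and 12.87, 12.75 and 12.71 with Aβ42 (3.48 ± 0.11), by Srxn1 (1.62 ± 0.05) and by Txnrd1 (1.55 ± 0.07). Of the 20, 1 fell, the peroxidase gene Gpx1 (-0.26 ± 0.08), and none did without Aβ42 replicate 1 or 2 or without vehicle replicate 2 or 3, whereas 2 did without vehicle replicate 1. Hmox1, a common marker of that response, rose by 0.59 ± 0.07.

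Glycolysis did not move as a unit. Of 23 genes of glycolysis and hypoxia 6 rose and 5 fell, so that 47.8% passed against 25.6% of all genes. Among the 16 enzymes and transporters 4 rose and 3 fell. For the 23, the rises numbered 9 and 8 without vehicle replicates 2 and 3, and 4 with only the 6 arrays in the fit. The falls numbered 3 without vehicle replicate 3 or with only the 6 arrays. The glucose transporters Slc2a6 (2.36 ± 0.09) and Slc2a1 (1.17 ± 0.11) and the hypoxia-induced peptide gene Adm (1.63 ± 0.08) rose, and Pfkfb3, a stimulator of glycolysis, fell by 0.66 ± 0.06. Of 19 genes of peroxisomes and fatty acid oxidation none rose and 7 fell: after Abcd2 came Acox3 (by 0.92 ± 0.07), Pparg (by 0.80 ± 0.15) and Cpt1a, the gate of mitochondrial oxidation (by 0.69 ± 0.05). Among 24 lipid genes the oxysterol enzyme gene Ch25h had the highest change, from 7.34, 7.26 and 7.80 to 11.35, 11.54 and 11.53 (4.01 ± 0.15), and Nr1h3, a nuclear receptor that oxysterols activate, rose by 1.55 ± 0.13. Gpr183, whose ligand is made from the product of that enzyme, was among the lowest changes above. The lipid droplet gene Plin2 fell by 0.68 ± 0.10. Of 10 genes of iron handling 2 rose and 3 fell, with a median of 0.02. The rises were the importers Slc11a2 (1.59 ± 0.07) and Slc39a14 (1.46 ± 0.10).

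The homeostatic genes of microglia were lower in part. Of 23 members 12 fell and 1 rose, with a median of -0.21. P2ry12, the receptor with which microglia sense nucleotides from injured cells, read 9.50, 8.95 and 9.08 in vehicle and 7.80, 7.71 and 7.72 with Aβ42 (fell by 1.43 ± 0.11), and Gpr34 and P2ry13 fell further. The engulfment receptor gene Mertk fell by 0.95 ± 0.06, the transcription factor gene Mef2c by 1.09 ± 0.06 and the ectonucleotidase gene Entpd1 by 0.60 ± 0.07. Csf1r and Siglech, which also mark the cell, did not pass, at -0.02 and 0.09. Siglech was dim, at 6.65, 6.80 and 6.68 in vehicle, below every array median. Tmem119 was the member that rose (0.33 ± 0.09), and it did not pass without Aβ42 replicate 1 (0.31) or without vehicle replicate 1 (0.22). Cx3cr1 fell by 0.30 ± 0.10, and did not pass without Aβ42 replicate 2 or 3 or without vehicle replicate 1 or 2 (falls of 0.24 to 0.30).

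Genes of the disease-associated microglia described around plaques in mouse models passed the test at 6 h about as often as all genes did. Of 21 members 2 rose, Cst7 (0.79 ± 0.09) and the receptor tyrosine kinase gene Axl (0.46 ± 0.07), and 3 fell, Cd9, Timp2 and Trem2, all by under 0.2 units. Without vehicle replicate 3, Aβ42 replicate 1 or Aβ42 replicate 2 none of those 3 passed, and without vehicle replicate 2 only 1 did. The median was -0.01, and 23.8% passed against 25.6% of all genes.

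Other surface receptors changed in both directions. Of 14 receptors for nucleotides and lipids 4 rose, led by Gpr84 and by Gpr18 (2.30 ± 0.13), and 5 fell, among them the cannabinoid receptor gene Cnr2, which read 7.61, 7.96 and 7.98 in vehicle and 6.27, 5.90 and 6.16 with Aβ42 (by 1.74 ± 0.12), and the ATP channel gene P2rx7 (by 1.06 ± 0.05). Among regulators of G protein signals and phosphodiesterases Pde4b, which breaks down cyclic AMP, rose by 2.09 ± 0.13, and Rgs1 fell by 1.00 ± 0.14 beside Rgs2.

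Of 35 phagocytic and scavenger receptors 12 rose (34.3%, against 10.7% of all genes) and 6 fell (17.1%, against 14.8%). The falls numbered 3 without Aβ42 replicate 2 or without vehicle replicate 3. Most rises lay in lectins and TREM-type receptors, of which 8 of 12 rose and none fell, with Clec5a (2.50 ± 0.09) and Pilra (1.80 ± 0.20) after Cd69 and Clec4e. Among scavenger receptors Marco rose (1.71 ± 0.07) after Olr1, and Colec12 fell by 0.41 ± 0.06. Of 13 Fc and complement genes Fcgr2b, the inhibitory Fc receptor gene, rose (0.74 ± 0.07), and the activating Fcgr3 fell by 0.46 ± 0.05. Of 8 genes of the phagocyte oxidase 5 rose and none fell, led by Ncf4 (1.69 ± 0.14) and Ncf1 (1.08 ± 0.07).

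Of 24 genes that handle amyloid 4 rose and 7 fell, so that 45.8% passed against 25.6% of all genes, and 29.2% fell against 14.8%. The falls numbered 3 with only the 6 arrays in the fit. The proteases Mmp14, from 8.13, 8.28 and 7.95 to 11.17, 11.10 and 11.11 (3.01 ± 0.09), and Mmp9 (2.55 ± 0.13) rose, and Plau, the urokinase gene, fell by 1.36 ± 0.15. Of the secretases Adam17 rose (0.87 ± 0.05) and Adam10 fell (by 0.34 ± 0.05). The precursor gene App did not pass, at 0.05.

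Among measured genes of antigen presentation, more rose on the class I side than on the class II side. Of 8 class I genes 5 rose, none of them 2-fold, led by the peptide transporter Tap1 (0.91 ± 0.15). The class I genes H2-K1 and H2-D1 were not measured. Of 6 class II genes 1 rose (Cd74, 0.36 ± 0.08) and 1 fell (H2-DMa, by 0.31 ± 0.06). Costimulation genes split: Icosl (2.59 ± 0.09), Cd274 for the checkpoint ligand PD-L1 (1.62 ± 0.09) and Cd80 (1.10 ± 0.12) rose, and the inhibitory receptor genes Havcr2 (by 1.38 ± 0.09) and Vsir (by 1.07 ± 0.06) fell. Among 12 adhesion genes Icam1 read 8.74, 8.94 and 9.04 in vehicle and 12.32, 12.36 and 12.44 with Aβ42 (3.46 ± 0.08), the integrins Itgal (1.92 ± 0.09) and Itga5 (1.85 ± 0.07) rose and Itga6 fell by 0.86 ± 0.06.

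Of 27 lysosome and autophagy genes 3 rose and 8 fell, so that 40.7% passed against 25.6% of all genes. Among 18 genes of lysosomal hydrolases and membrane proteins 1 rose and 3 fell (22.2%), and among 9 autophagy genes 2 rose and 5 fell (77.8%). Tfeb, the factor that drives lysosome genes, fell by 0.48 ± 0.07, and Ulk1, the kinase that starts autophagy, by 0.73 ± 0.06, while the cargo receptor gene Sqstm1 rose by 0.95 ± 0.06.

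Survival genes rose. Of 9 anti-apoptotic genes 8 rose and none fell, led by the kinase Pim1 (2.71 ± 0.09), Birc3 (2.25 ± 0.09), Cflar (1.98 ± 0.08) and Gadd45b (1.91 ± 0.08), and Mcl1 rose by 0.54 ± 0.05. Of 9 pro-apoptotic genes 3 fell, among them Bcl2l11 (by 0.86 ± 0.05) and Bmf (by 0.78 ± 0.08), and 1 rose, Bid (0.19 ± 0.06), which did not pass without Aβ42 replicate 1 (0.18), Aβ42 replicate 3 (0.17) or vehicle replicate 1 (0.15). Genes under FOXO control and arrestin-like genes fell in the main: 9 of 13 fell and 1 rose, with a median of -0.46. Ccng2 (by 1.50 ± 0.11), Klhl24 (by 1.24 ± 0.08), Sesn1 (by 1.14 ± 0.09) and Foxo3 itself (by 0.88 ± 0.05) fell, and Arrdc4 rose by 1.09 ± 0.06. Among growth factors Edn1 (1.97 ± 0.13) and Pdgfb (1.24 ± 0.11) rose beside the fall of Hgf.

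**Figure D3:**
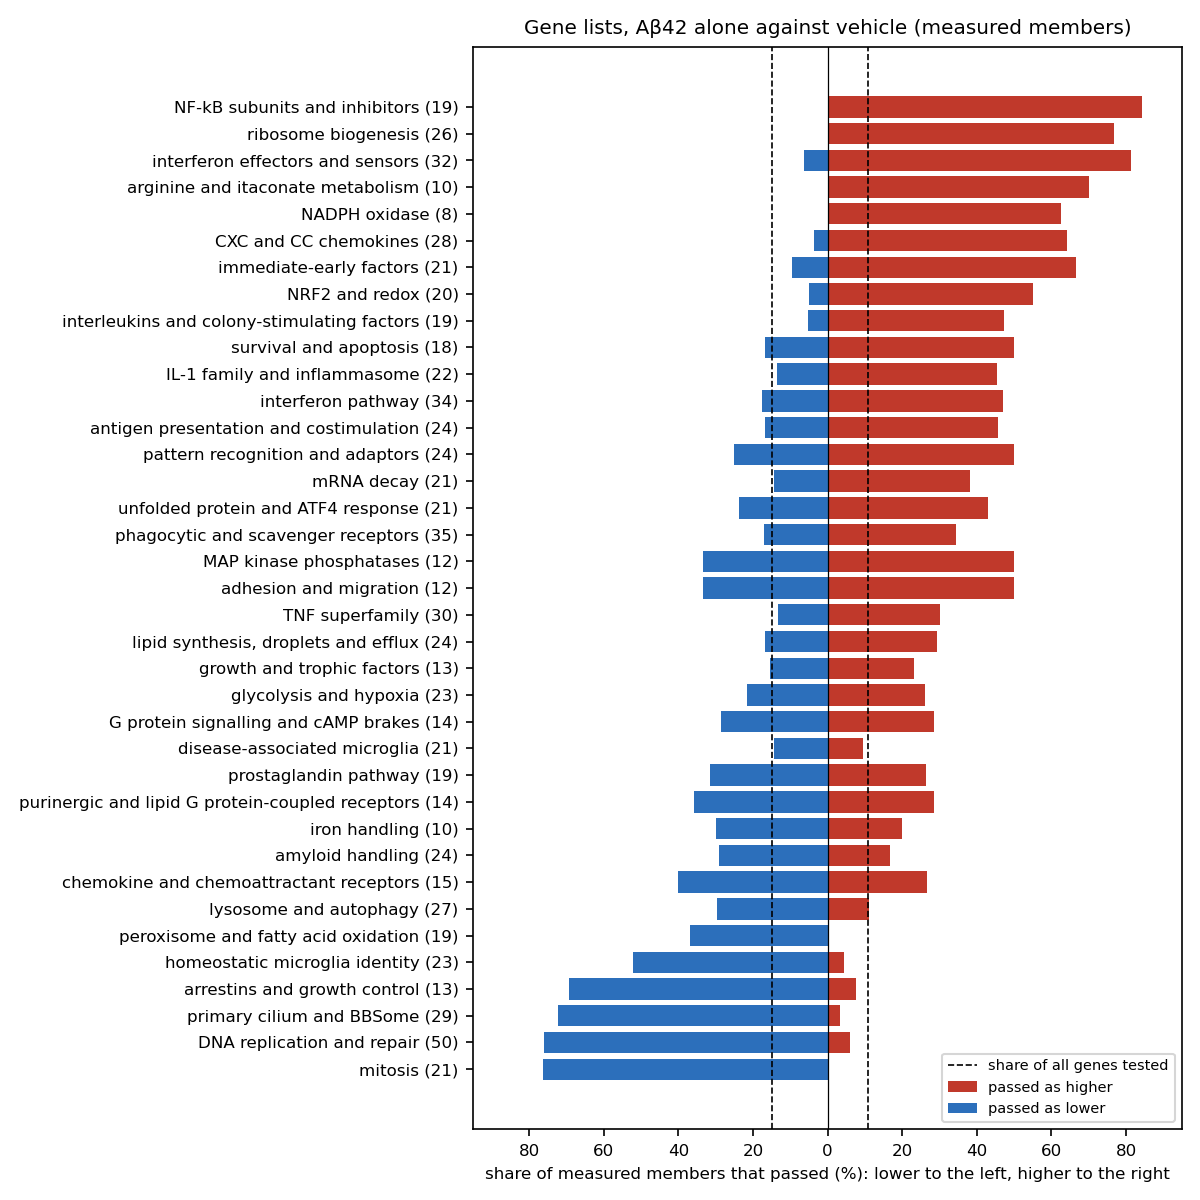
Share of the measured members of each gene list (number in brackets) that passed as higher (red, to the right) or lower (blue, to the left) with Aβ42 alone against vehicle, with dashed lines at the shares of all genes tested, 10.7% and 14.8%. NF-kB genes and ribosome biogenesis stand at the top with no fall, and mitosis, with no rise, at the bottom.

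Most cell cycle genes fell, by small amounts. Of 50 genes of DNA replication and repair 38 fell and 3 rose, with a median of -0.49. Mcm7, a subunit of the helicase that opens DNA at replication, read 9.26, 9.77 and 9.87 in vehicle and 8.50, 8.78 and 8.88 with Aβ42 (fell by 0.91 ± 0.16), and Mcm4 fell by 0.82 ± 0.08. Among G1/S regulators 11 of 13 fell, led by Ccne2 (by 1.18 ± 0.11) and E2f8 (by 1.03 ± 0.10), and the inhibitor gene Cdkn1b also fell (by 0.80 ± 0.07). Of 15 repair genes 9 fell, and Brca2, which acts in recombination, fell by 0.82 ± 0.10. The 3 rises of the list numbered 1 without Aβ42 replicate 2 or without replicate 3.

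Of 21 mitotic genes 16 fell and none rose, with a median of -0.54, and Bub1b, a checkpoint kinase gene, fell by 0.83 ± 0.14. All 21 had a change below 0. Without Aβ42 replicate 1 the count was 10, and with the litter as a block it was 21. Ciliary genes fell too: 21 of 29 genes of the primary cilium fell and 1 rose, with a median of -0.33. Wdr19, part of the transport machine inside cilia, read 8.36, 8.43 and 8.55 in vehicle and 7.41, 7.78 and 7.64 with Aβ42 (fell by 0.83 ± 0.08), and Kif3a, its motor, fell by 0.57 ± 0.08. Of 40 kinesin genes 19 fell.

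Many zinc finger genes fell. Of 347 genes whose symbols start with Zfp 117 fell (33.7%) and 16 rose, with a median of -0.12, against 14.8% of all genes lower. The family includes Zfp36, Zfp36l1 and Zfp36l2, whose fingers bind RNA. Changes were small: 2 of the 117 fell at least 2-fold, Zfp36l1 and Zfp36l2.

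Most genes that build ribosomes rose, and few ribosomal protein genes passed. Of 26 genes of ribosome biogenesis 20 rose and none fell, with a median of 0.33, led by Rrs1, which read 5.87, 5.75 and 5.94 in vehicle and 6.71, 6.84 and 6.79 with Aβ42 (0.92 ± 0.10), and by Nop58 (0.71 ± 0.09). Of 57 cytosolic ribosomal protein genes 3 rose and none fell, with a median of 0.00. The rises numbered 1 without Aβ42 replicate 1 or replicate 3, and without vehicle replicate 1 6 genes fell. Of 49 proteasome genes 22 rose and 1 fell, with a median of 0.16, led by Psmd10 (1.02 ± 0.06), Psme2, part of the interferon-induced activator (0.82 ± 0.06), and Psmd11 (0.77 ± 0.07). Genes of the unfolded protein response were mixed, with 9 of 21 higher, among them Herpud1 (1.88 ± 0.07) and Ppp1r15a (1.21 ± 0.06), and 5 lower, of which 3 were left with only the 6 arrays in the fit.

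Of 93 genes of the respiratory chain and its assembly 1 rose and 10 fell. Thus 11.8% passed against 25.6% of all genes, and 10.8% fell against 14.8%. The falls numbered 4, 6 and 19 without Aβ42 replicate 1, Aβ42 replicate 2 and vehicle replicate 1. Of 77 mitochondrial ribosomal protein genes 5 rose and 9 fell, so that 18.2% passed, also below the share of all genes. There were 10 rises with the litter as a block, 12 rises without vehicle replicate 3 and 14 falls without vehicle replicate 1. Among 1027 olfactory receptor genes, which microglia are not known to need, 16 rose and 7 fell, so that 2.24% passed against 25.6% of all genes. The rises numbered 49 without vehicle replicate 2, 10 without vehicle replicate 3 or Aβ42 replicate 1 or 3, and 8 with only the 6 arrays in the fit, and the falls 11 without vehicle replicate 3.

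**Figure D4:**
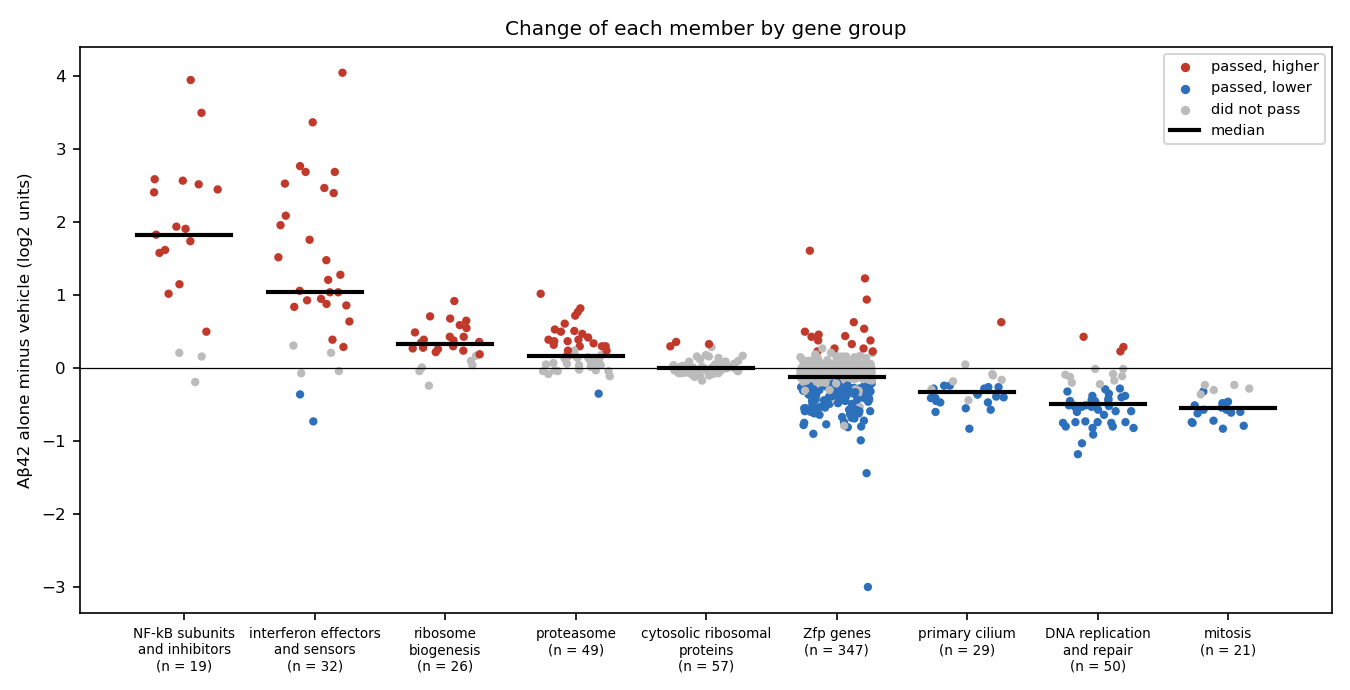
Change with Aβ42 alone against vehicle (vertical axis, log2 units) of every measured member of 9 gene groups, red where it passed as higher, blue where it passed as lower and grey where it did not pass, with a black line at the median. The NF-kB group has its median at 1.83 and the interferon effectors at 1.05, cytosolic ribosomal proteins lie around 0, and cilium, replication and mitosis lie below it at -0.33, -0.49 and -0.54.

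The same contrast was also present in the 6 arrays with AE1-329, which came from the same litters and share no array with the comparison above. There 22.0% of genes passed. Of the 5100 genes that passed with Aβ42 alone, 4886 (95.8%) had the same sign and 3411 also passed with that sign. Of the 529 genes that changed at least 2-fold, 527 had the same sign and 500 also passed. All 30 genes with the highest and lowest changes passed with the same sign. A test of the difference between the contrasts passed for 1.95% of all genes and for 8 of those 30. Those 30 were chosen by their change with Aβ42 alone, which is part of that difference, so these shares cannot be compared. The rise of Cd40 was 1.49 units smaller with AE1-329 and that of Il1b 1.12 units smaller, while the fall of Rgs2 was 0.92 units deeper. For Il1b the arrays with AE1-329 alone (7.73, 7.66 and 8.43, the last in replicate 3) lay above vehicle. Its level with both agents (12.74, 12.57 and 12.68) was not below that with Aβ42 alone.

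**Figure D5:**
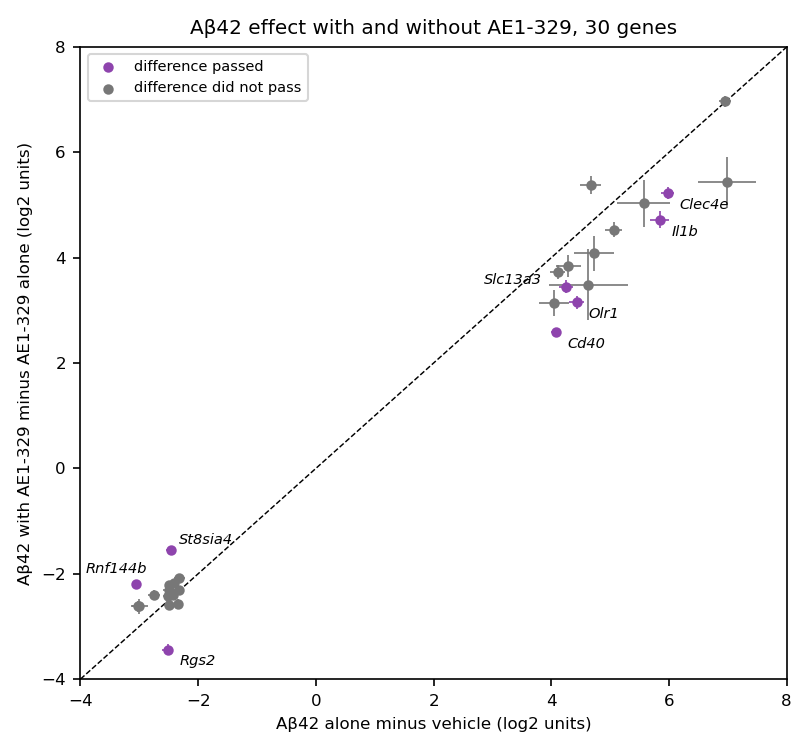
Change with Aβ42 in the absence (horizontal axis) and presence (vertical axis) of AE1-329, in log2 units with standard errors, for the 30 genes with the highest and lowest changes, with a dashed line where the changes are equal. All 30 keep their direction, and the 8 genes in purple, such as Cd40, differ between the contrasts.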

How the data were processed

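The authors deposited 1 log2 value for each probe set on each array, a scale read from the range of 2.79 to 13.95. Per the submitters' processing notes RMA and Partek 6.5 were used, for steps that are not given. RMA usually aligns arrays by quantiles, so changes are relative to the bulk of genes. For filters, litter correction and build, the sources used here say nothing. Signal over background was not analysed here. Precision is limited by the number of arrays.

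The platform annotation gave 1 symbol to 21789 of the 35556 probe sets, several to 1621 and none to 12146, and 21698 of the first kind matched RefSeq GRCm38.p6 by gene ID. Where a gene had several probe sets (999 genes), the one with the highest mean was kept, which left 19938 genes with no filter. Group means of all 12 arrays were fitted with limma 3.58.1 in R 4.3.3 (8 residual and 4.54 prior degrees of freedom), and p-values are two-sided. The fit was tested on simulated data.

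The comparison, its gene lists and tests were chosen with earlier results of these data known. Genes were named by a rule that took the 15 highest and 15 lowest changes among genes that passed with no overlap of the groups, starred members and up to 6 per direction of each list, and 3 per direction of each symbol family. Named outside it, after their values were seen, were the microRNA genes and Mir99ahg, the cell markers Ccr2, Mrc1, Ms4a7 and Slc1a3, and Irgm1, Tlr6, Bid, Tnip2, Cyld and Otud7b. Predicted and olfactory receptor genes were not named. Promoters and microRNAs are from RefSeq.

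Replicate numbers were taken as litters per the series' design text. Among the 18 same-numbered pairs the mean correlation of deviations from the group mean was 0.326 (0.00435 to 0.538, 17 above 0.1), and for each of the 12 arrays it was highest within its own litter. Between the groups compared here it was lower in litters 1 and 2, at 0.119 and 0.00435, and 0.371 in litter 3. The main fit held no litter term.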

Additional observations from a re-analysis of the deposited data

Results flagged for a closer look

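Among the 30 genes with the highest and lowest changes, 8 had an Aβ42 effect that differed between cultures without and with AE1-329 by limma's interaction test (Benjamini-Hochberg over all genes). The 30 were chosen by their change with Aβ42 alone, which is part of the tested difference. Such a choice favours smaller changes with AE1-329. The direction of the effect was the same in both settings for each of them. The rise was smaller with AE1-329 for Cd40, by 1.49 units (interaction -1.49 ± 0.11, adjusted p = 3.7e-05), from 4.08 to 2.59. The interaction was -1.28 ± 0.19 for Olr1 (adjusted p = 0.00289), -1.12 ± 0.23 for Il1b (0.0226), -0.80 ± 0.18 for Slc13a3 (0.0363) and -0.76 ± 0.15 for Clec4e (0.0220). Il1b read 6.76, 6.40 and 6.63 in vehicle, 7.73, 7.66 and 8.43 with AE1-329 alone, and 12.74, 12.57 and 12.68 with both agents. Its smaller rise thus went with a higher level before Aβ42, and not with a lower level than with Aβ42 alone.

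Of the genes that fell, Rgs2 fell further with AE1-329 (interaction -0.92 ± 0.14, adjusted p = 0.00291), from 2.52 to 3.44 units lower. The fall was smaller for St8sia4 (interaction 0.93 ± 0.09, adjusted p = 0.000243) and for Rnf144b (0.87 ± 0.09, adjusted p = 0.000249).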

How the results depend on the processing

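Across the 15 alternatives the number of genes that passed stayed within 1.5 times of 5100, from 3947 with only the 6 arrays in the fit to 5697 with the replicate block (litter) and, leaving out single arrays of the comparison, from 4210 to 5698. With the block 5075 of those 5697 genes were among the 5100 with the same sign, and among list counts of 3 or more it moved 1 by over 1.5 times, the rises of mitochondrial ribosomal protein genes, from 5 to 10. Of 224 named genes that passed, 217 passed under every alternative that tested them, and Bid, Cd9, Cx3cr1, Gpx1, Timp2, Tmem119 and Trem2 did not. The sign turned for C1qb without vehicle replicate 1 (0.02, against -0.05 without replicate 2) and for Csf1r without vehicle replicate 3 (0.02, against -0.07 without replicate 1), neither of which passed. Leaving out replicate 3 of AE1-329 alone, chosen after seeing the data, left 4955 genes. Dim genes are limited by an unknown background.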

Other observations

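Of 364 solute carrier genes 45 rose and 50 fell, close to the shares of all genes, and without vehicle replicate 1 72 fell. At least 2-fold changes were 12 rises and 3 falls. Of 15 cytosolic tRNA synthetase genes 6 rose and none fell, and the rises numbered 3 without Aβ42 replicate 2 or replicate 3, while 2 fell without vehicle replicate 1. Of the 16 mitochondrial ones none rose and 4 fell. Thus 25.0% passed against 25.6% of all genes, and 25.0% fell against 14.8%. Without vehicle replicate 1 2 rose and 8 fell. Of 59 tripartite motif genes 10 rose (16.9%, against 10.7% of all genes) and 8 fell (13.6%, against 14.8%).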
